A study of Mus musculus with 8 samples.

Results

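The genes described here are 9 members of the BCL2 family, taken by their symbols from the 27998 genes counted in each library. They are the anti-apoptotic Bcl2, Bcl2l1 and Mcl1, the BH3-only genes Bcl2l11, Bid, Pmaip1 and Bbc3, and the effectors Bax and Bak1. The study followed hematopoietic stem and progenitor cells (HSPCs) of the bone marrow after a single dose of interferon-α (IFNα) by single-cell RNA sequencing, and the question addressed here is how the levels of these genes differed between lineages and time points. All 16 mice were Wildtype and 12 to 14 weeks old. Treated mice were given recombinant mouse IFNα under the skin, 50000 IU for each 20 g of mouse, and their marrow was taken 3, 24 or 72 h later, while control mice were given 100 µl of PBS. From each mouse LK cells (Lin− cKit+), which hold the whole range of early progenitors, were sorted and enriched with LK CD150+ CD48− CD34− cells, the gate of hematopoietic stem cells (HSCs), so that shares of cell types are not those of the marrow. The cells of each mouse were marked by 1 of 4 hashtag antibodies and the 4 mice of a time point were pooled in 1 library, so time point and library cannot be told apart.

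Of the barcodes in the 4 libraries, 10046 with a single hashtag, at least 700 genes and at most 5% mitochondrial counts were kept, between 1661 and 3462 per library. Median depth per cell differed between libraries, from 12017 unique molecular identifiers (UMIs, counts of captured RNA molecules) at 3 h and 14763 at 72 h to 18953.5 at 24 h and 18964.5 in control. A mouse had between 58 and 1240 kept cells, where the 58 cells belong to control mouse 4 and the next lowest mouse had 330. At most 1 kept barcode was shared between any pair of libraries. Clusters of control cells, made without the 9 genes, were named by listed markers and gave 5 classes: HSC-like, LMPP-like (lymphoid-primed multipotent progenitors), and myeloid, erythroid and MK (megakaryocyte) progenitor-like cells. Of 15 clusters, 10 fell in these classes. The others were named like basophils, mast cells and eosinophils (3.27% of control cells) or unnamed (13.7%), and entered only the sums over all cells. That name rested on 1 listed marker, Gzmb, among the 10 leading genes in a cluster of 63 control cells, and on 6 in a cluster of 18. The larger of the 2 LMPP-like clusters was also led by Ms4a2 and Cpa3, genes of basophils and mast cells, and 1 of the 2 HSC-like clusters by Jchain, Mzb1 and Cd79a, genes of B lineage cells. Of their listed markers, this LMPP-like cluster had 3 among the 10 leading genes, each HSC-like cluster 2 and the larger erythroid cluster 2. Each HSC-like cluster also had 1 listed marker of another class there (Dntt or Cd79a). The treatment was visible in the sums over all cells of a mouse. There the interferon-stimulated gene Isg15 went from 32.6 CPM in control to 1692 CPM at 3 h. CPM are counts scaled to the total of the mouse and a normalization factor given with the processing below.

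The BCL2 family sets whether a cell opens its outer mitochondrial membrane and dies by apoptosis. Bax and Bak1 encode the proteins that form the pore, Bcl2, Bcl2l1 (BCL-XL) and Mcl1 hold them in check, and the BH3-only proteins Bcl2l11 (BIM), Bid, Pmaip1 (NOXA) and Bbc3 (PUMA) release or activate them under stress. In the blood system Mcl1 is needed for the survival of stem cells, Bcl2 for lymphoid cells, and Bcl2l1 for late erythroid cells and platelets. Much of the control of these proteins lies in binding and turnover, which counts of RNA do not show.

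Promoter windows of 120 bases directly before the annotated start are shown for 4 members and for Isg15 and Ifit1, interferon targets taken because their windows hold an interferon motif. They are RefSeq sequences on GRCm38.p6, written 5′ to 3′ on the strand of the gene. Bcl2, Mcl1, Bid and Bcl2l11 stand for genes on which results below turn, and in them the capitals mark the GC box GGGCGG or its reverse complement. In Isg15 and Ifit1, which encode an interferon-induced ubiquitin-like protein and an inhibitor of viral RNA translation, the capitals mark the core of the interferon-stimulated response element (ISRE), which is GAAA, any 2 bases and GAAA, or its reverse complement, whose matches can overlap. Irf7, a further interferon target that was looked up, held no ISRE core in its window of 300 bases.
Bcl2, chr1:106714291-106714410, minus strand: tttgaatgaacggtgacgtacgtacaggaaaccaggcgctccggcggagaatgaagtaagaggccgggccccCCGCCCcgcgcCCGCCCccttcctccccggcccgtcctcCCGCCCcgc
Mcl1, chr3:95658601-95658720, plus strand: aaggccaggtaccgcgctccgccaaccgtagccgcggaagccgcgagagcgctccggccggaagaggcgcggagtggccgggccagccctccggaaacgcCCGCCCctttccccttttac
Bid, chr6:120916825-120916944, minus strand: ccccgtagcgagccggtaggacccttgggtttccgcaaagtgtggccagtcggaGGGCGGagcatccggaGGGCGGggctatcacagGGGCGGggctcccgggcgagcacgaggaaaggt
Bcl2l11, chr2:128125918-128126037, plus strand: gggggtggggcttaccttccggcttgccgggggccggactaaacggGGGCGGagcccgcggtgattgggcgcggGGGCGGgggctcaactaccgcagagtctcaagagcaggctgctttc
Isg15, chr4:156200819-156200938, minus strand: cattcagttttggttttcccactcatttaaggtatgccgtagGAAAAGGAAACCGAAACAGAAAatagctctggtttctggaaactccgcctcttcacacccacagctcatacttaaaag
Ifit1, chr19:34640769-34640888, plus strand: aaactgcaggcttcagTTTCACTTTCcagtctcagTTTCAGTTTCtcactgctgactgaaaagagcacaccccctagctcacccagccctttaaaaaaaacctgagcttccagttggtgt

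By GENCODE vM21 on GRCm38, Bcl2 lies at chr1:106538178-106714274, Bcl2l1 at chr2:152780668-152831728 and Mcl1 at chr3:95658788-95663176. Of the BH3-only genes, Bcl2l11 lies at chr2:128126038-128162547, Bid at chr6:120891930-120916853 and Bbc3 at chr7:16308393-16318205. The effectors Bax and Bak1 lie at chr7:45461697-45466898 and chr17:27019810-27029009. Mcl1, Bcl2l11 and Bbc3 are on the plus strand and the other 5 on the minus strand.

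No window of Pmaip1 was in the set searched. RefSeq windows of 300 bases around the starts of the other 8 genes were searched, 13 windows in all. On either strand, none of these windows held the ISRE core, the core of the interferon-γ activated site (TTC, any 3 bases, GAA) or the TATA box TATAAA. Of all 32851 windows of the set searched, 3.44% held the ISRE core, 8.30% the activated site and 13.6% the TATA box. This set did not cover every chromosome. The GC box, found in 35.7% of all windows, occurred 7 times in the window of Bcl2 and 5, 4 and 7 times in those of Bbc3. It occurred 3 times in each window of Bcl2l11, Bid and Bax, once in that of Mcl1 and not in those of Bak1 and Bcl2l1. A match describes the letters in the window, and its absence says nothing about a factor.

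In control cells each gene had its own order of classes, given here as a description since the classes were clustered from the same cells (plot of control levels by class). The values are CPM from UMI sums per mouse, with 4 control mice for HSC-like and myeloid progenitor-like cells and 3 for the others, where control mouse 4 had fewer than 10 cells. Counts at 3′ ends are read within a gene and not between genes. Bcl2 was highest in LMPP-like cells at 155 ± 11.4 CPM (SD), apart from MK progenitor-like (91.7 CPM), HSC-like (83.8 CPM) and myeloid progenitor-like cells (65.6 CPM). The range of HSC-like cells overlapped with those of MK and myeloid progenitor-like cells, which did not overlap with each other. Erythroid progenitor-like cells held 12.2 CPM of Bcl2, 12.7-fold less than LMPP-like cells. Bcl2l1 was highest in MK progenitor-like cells at 22.3 CPM, with a range above those of all other classes, and lowest in erythroid progenitor-like cells at 2.23 CPM, 9.98-fold less. Mcl1 was highest in HSC-like cells at 175 CPM (159.7 CPM without control mouse 4), again apart from the other classes, which overlapped between 94.0 and 112 CPM.

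The genes that promote death were ordered otherwise. Bid, the BH3-only protein that links death receptors to mitochondria, was highest in myeloid progenitor-like cells at 59.9 CPM, then came LMPP-like (44.1 CPM), erythroid (36.6 CPM), HSC-like (25.02 CPM) and MK progenitor-like cells (17.9 CPM), and only the last pair overlapped. Bbc3, a p53 target, was highest in HSC-like cells at 20.1 CPM and lowest in myeloid progenitor-like cells at 4.10 CPM (5.46 CPM without control mouse 4). The range of HSC-like cells overlapped with those of MK progenitor-like and LMPP-like cells, which overlapped with that of erythroid progenitor-like cells. The myeloid progenitor-like range lay below all others. Bcl2l11 lay between 5.04 and 9.94 CPM with overlap throughout. The pore-forming Bax was highest in erythroid progenitor-like cells at 202.5 CPM and lowest in HSC-like cells at 109 CPM, a 1.86-fold span (1.69-fold without control mouse 4). Bak1 was highest in myeloid progenitor-like cells at 60.4 CPM, with a range that overlapped with that of erythroid progenitor-like cells. It was low in HSC-like (27.1 CPM) and MK progenitor-like cells (28.8 CPM), whose ranges overlapped. Without control mouse 4, HSC-like cells had 31.0 CPM of Bak1, above MK progenitor-like cells. Pmaip1 rested on few molecules, 199 UMIs over all kept cells, and had 1 UMI in the erythroid progenitor-like cells of the control mice.

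**Figure D1:**
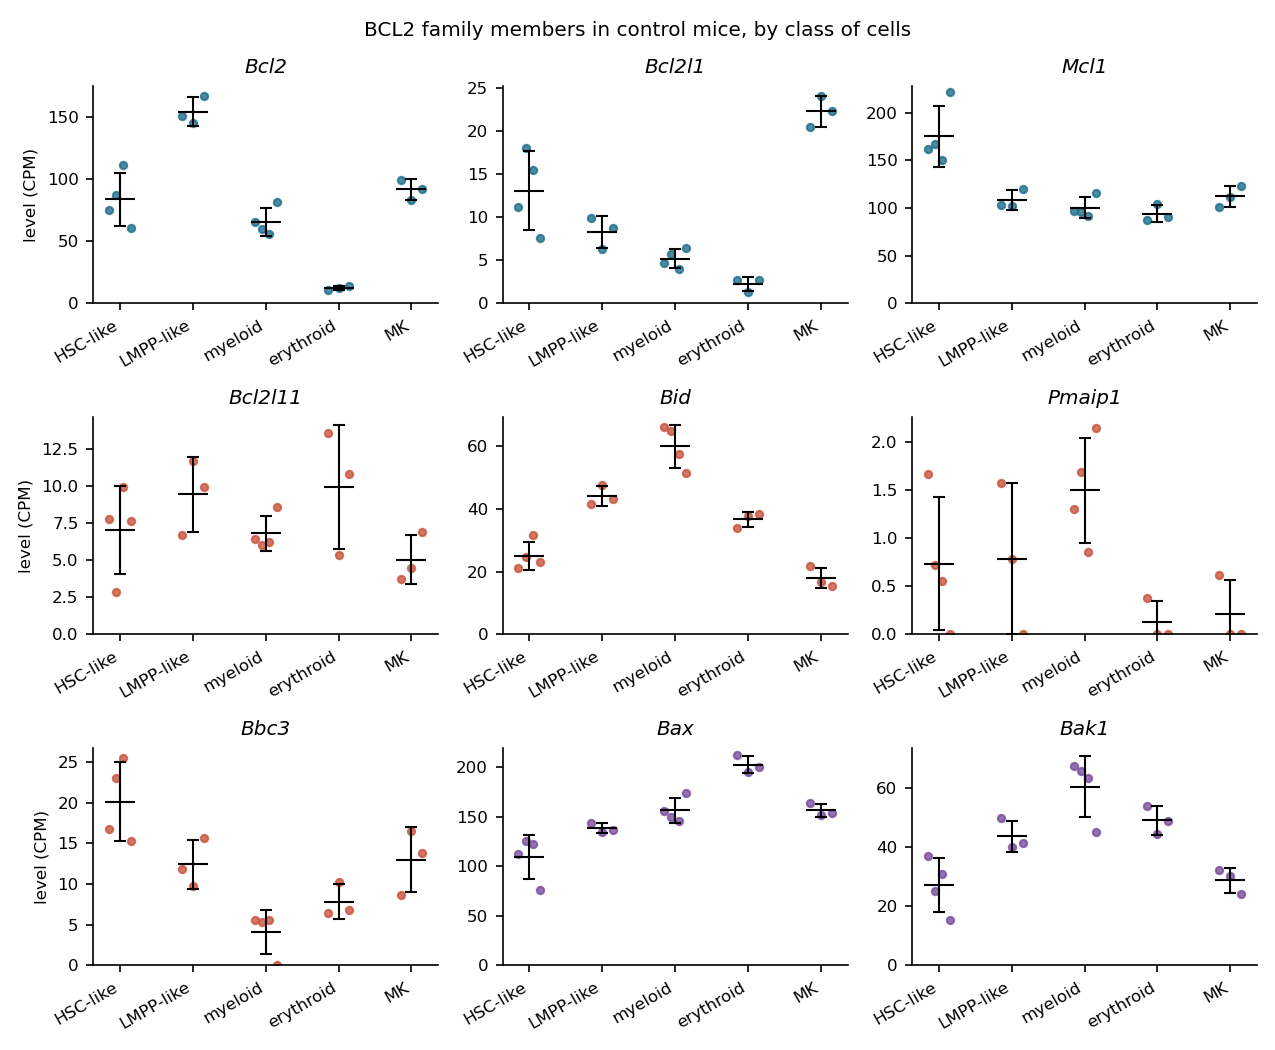
CPM of each of the 9 genes in the 5 classes in control mice, with a dot per mouse and the mean ± SD (n = 4 for HSC-like and myeloid progenitor-like cells, n = 3 for the others). Bcl2 stands highest in LMPP-like cells (155 CPM), Mcl1 in HSC-like cells (175 CPM), Bid in myeloid progenitor-like cells (59.9 CPM) and Bax in erythroid progenitor-like cells (202.5 CPM).

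Over the sums of all kept cells of a mouse, Bid and Bax were lower after IFNα at each of the 3 time points, Mcl1 was higher at 3 and 72 h, and Bbc3 was higher at 24 and 72 h. At 3 h, 5 of the 9 genes passed the test (2 higher, 3 lower), where 38.8% of all 12042 genes tested passed it. At 24 h there were 4 (2 higher, 2 lower) against 28.3% of all genes, and at 72 h 5 (2 higher, 3 lower) against 37.4%. None moved by more than 1 on the log2 scale, and the median log2 fold change of the 9 genes was −0.07, −0.06 and 0.10 at 3, 24 and 72 h, beside −0.03, 0.00 and 0.02 over all genes. The 3 comparisons share the 4 control mice. In such sums, fewer cells of a type and less RNA per cell cannot be told apart, and the share of myeloid progenitor-like cells was 29.4% in control and 15.8%, 19.6% and 15.3% at 3, 24 and 72 h, while that of HSC-like cells was 17.0% in control and 32.8%, 24.7% and 29.9%.

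Among the anti-apoptotic genes, Mcl1 was at 109, 112, 112 and 138 CPM in the control mice 1 to 4 and at 135, 128, 131 and 128 CPM at 3 h. The highest control value, that of the mouse with 58 cells, lay above all 4 treated mice, and the other control mice lay below all of them. Mcl1 rose by 0.20 on the log2 scale at 3 h (SE 0.055, adjusted p of 6.4e-03) and by 0.16 at 72 h (SE 0.053, adjusted p of 0.0200). Bcl2 was at 77.3, 74.2, 78.4 and 61.7 CPM in control and at 65.4, 53.4, 66.5 and 75.2 CPM at 3 h. These groups overlapped, and 1 treated mouse lay below all control mice. Bcl2 fell by 0.21 on the log2 scale at 3 h (SE 0.079, adjusted p of 0.0403), and at 72 h its mean was 84.0 CPM, a log2 fold change of 0.15 that did not pass (adjusted p of 0.103). Bcl2l1 was at 7.77, 8.23, 7.60 and 11.3 CPM in control, at 9.62, 10.9, 12.0 and 9.11 CPM at 3 h and at 11.1, 11.2, 9.47 and 8.98 CPM at 24 h. It rose by 0.40 at 3 h (adjusted p of 0.0128) and by 0.35 at 24 h (adjusted p of 0.0127), although control mouse 4 lay within or above the treated mice. With scaling by library size alone, under which the median of all genes moved by −0.18 at 3 h, the log2 fold changes at 3 h were 0.05 for Mcl1 (adjusted p of 0.47) and 0.25 for Bcl2l1 (adjusted p of 0.094). The call of Bcl2 at 3 h was lost with DESeq2 (adjusted p of 0.055), and with edgeR's likelihood ratio test those of Bcl2 (adjusted p of 0.080) and Bax (adjusted p of 0.083) were. Leaving out 1 mouse, Bcl2 at 3 h did not pass without control mouse 1, 2 or 3 or mouse 1, 2 or 3 of 3 h (log2 fold changes of −0.23 to −0.14), nor Bcl2l1 at 3 h without mouse 3 of 3 h (0.30). Bcl2l1 at 24 h did not pass without control mouse 1 or 3 or mouse 2 of 24 h (0.29 to 0.33), and Mcl1 at 72 h without control mouse 1, 2 or 3 or mouse 4 of 72 h (0.11 to 0.15).

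Of the BH3-only genes, Bid was at 48.5, 48.1, 44.0 and 33.0 CPM in control. The 3 h mice had 41.8, 35.5, 36.8 and 40.0 CPM, the 24 h mice 37.4, 37.6, 37.1 and 39.0 CPM and the 72 h mice 35.8, 39.1, 38.8 and 36.7 CPM. Control mouse 4 was lowest of all 16 mice, and the other 3 control mice lay above every treated mouse. Bid fell by 0.26 on the log2 scale at 3 h (adjusted p of 5.3e-03), by 0.28 at 24 h (adjusted p of 1.5e-03) and by 0.29 at 72 h (adjusted p of 1.1e-03), with SEs of 0.061 to 0.071. Bbc3 was at 8.96, 10.1, 11.2 and 9.56 CPM in control, at 11.9, 13.1, 11.8 and 11.6 CPM at 24 h and at 13.2, 13.2, 12.2 and 12.5 CPM at 72 h, so that each treated mouse of these time points lay above every control mouse. It rose by 0.27 at 24 h (adjusted p of 0.0166, with DESeq2 0.054) and by 0.35 at 72 h (adjusted p of 3.5e-03). At 24 h it did not pass without control mouse 1 (0.20) or mouse 2 of 24 h (0.22). Bcl2l11 had a mean of 8.22 CPM in control and 6.20 CPM at 3 h, a log2 fold change of −0.25 that did not pass (adjusted p of 0.174). Pmaip1 had 53, 34, 68 and 44 UMIs in all cells of the 4 time points and a log2 fold change of 0.71 at 3 h that did not pass (SE 0.357, adjusted p of 0.123).

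Of the effectors, Bax was at 162, 150.3, 149.9 and 158 CPM in control. The 3 h mice had 155, 129, 131 and 138 CPM, the 24 h mice 140.3, 132, 137 and 140.0 CPM and the 72 h mice 136, 129.9, 137 and 137 CPM. All mice of 24 and 72 h and 3 of 4 mice of 3 h lay below every control mouse. Bax fell by 0.16 on the log2 scale at 3 h (SE 0.050, adjusted p of 0.0125), by 0.17 at 24 h (SE 0.047, adjusted p of 7.9e-03) and by 0.19 at 72 h (SE 0.047, adjusted p of 3.1e-03). Bak1 was at 56.0, 51.6, 49.4 and 46.1 CPM in control and at 41.4, 44.5, 46.0 and 40.9 CPM at 72 h, with no overlap. It fell by 0.27 at 72 h (SE 0.083, adjusted p of 0.0145), and its log2 fold changes at 3 h (−0.07) and 24 h (−0.06) did not pass. Without control mouse 1, the highest for both genes, Bax did not pass at 3 h (−0.13) and 24 h (−0.14), nor Bak1 at 72 h (−0.22).

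**Figure D2:**
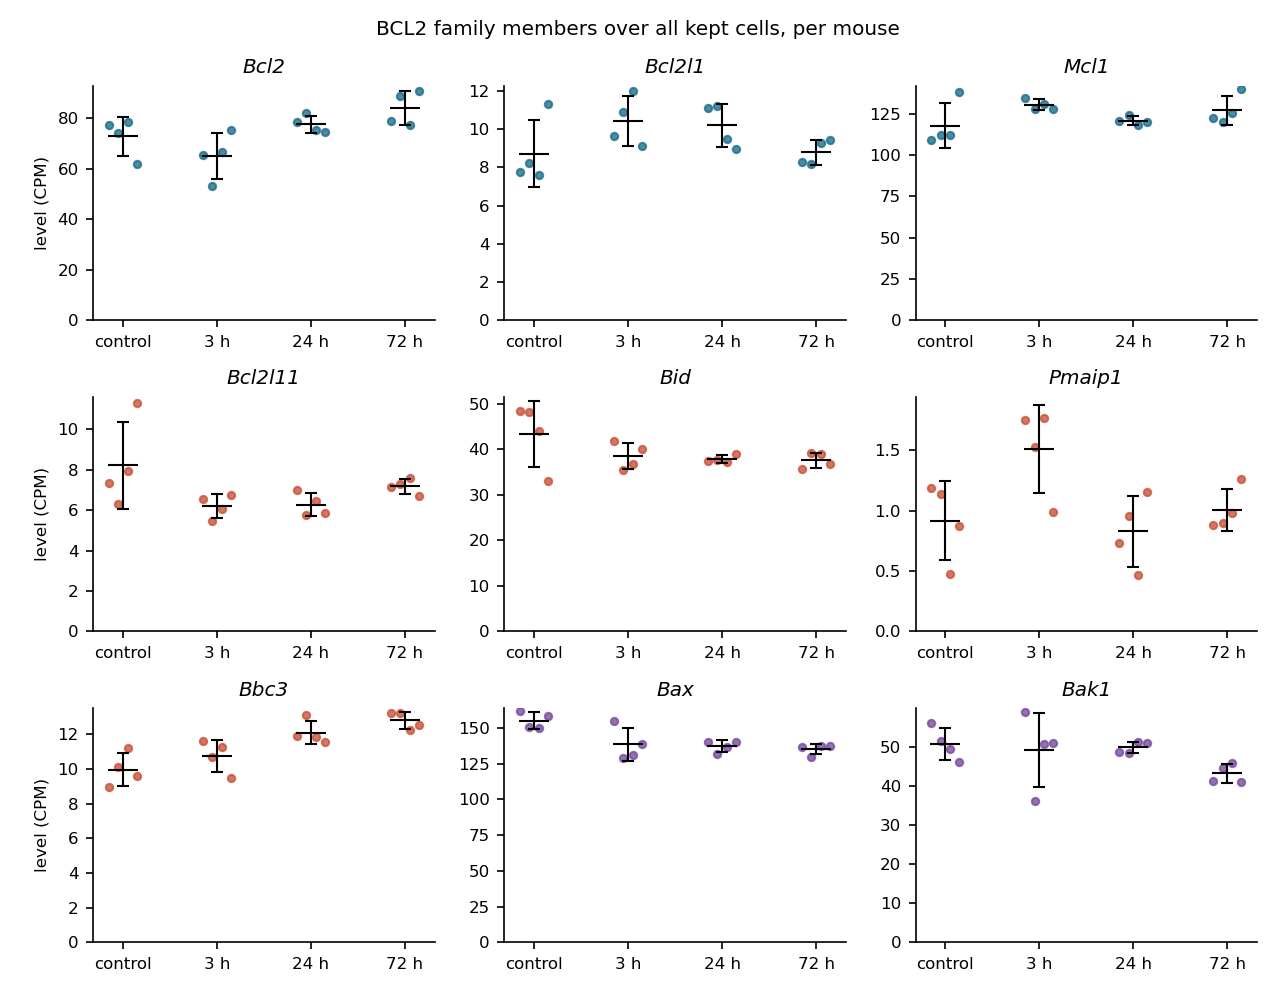
CPM of each gene in the sum over all kept cells, with a dot per mouse and the mean ± SD of the 4 mice of control, 3 h, 24 h and 72 h. Bax lies lower in all mice of 24 and 72 h than in any control mouse, and Bbc3 higher, while Bcl2, Mcl1 and Bid overlap with the control mice.

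Most of these differences were smaller in an average of the classes at their control shares of cells, an alternative added after the data had been seen. For it, the CPM of the 5 classes were averaged with their shares among the control cells of these classes. The average was tested with limma over 3 control and 4 treated mice per time point. The shares count cells, while in the sums a class weighs by its UMIs. In control mouse 1, 254 myeloid progenitor-like cells held 8639515 UMIs and 149 HSC-like cells held 1703513. Cells outside the 5 classes were in the sums and not in this average. The fits thus differ in more than the mix, and how much of the change came from each was not tested. At 3 h, Bcl2 fell by 0.35 (adjusted p of 7.5e-04) and Mcl1 rose by 0.17 (adjusted p of 6.4e-03), and no other gene of the 9 passed, where 36.7% of all genes did. At 24 and 72 h none of the 9 passed in this fit, where 10.3% and 14.2% of all genes did. The log2 fold change of Bid became −0.06, −0.11 and −0.02 at 3, 24 and 72 h, and that of Bbc3 0.14 at 24 h and 0.03 at 72 h. Bak1, which passed as lower at 72 h in the sums, had 0.01 there. Bax had −0.06, −0.10 and −0.10, against −0.16, −0.17 and −0.19 in the sums. In control mice, Bid and Bak1 had their highest and Bbc3 its lowest mean in myeloid progenitor-like cells, a class whose share was lower at each time point, as was that of erythroid progenitor-like cells (9.26% in control, then 6.98%, 8.23% and 7.72%).

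**Figure D3:**
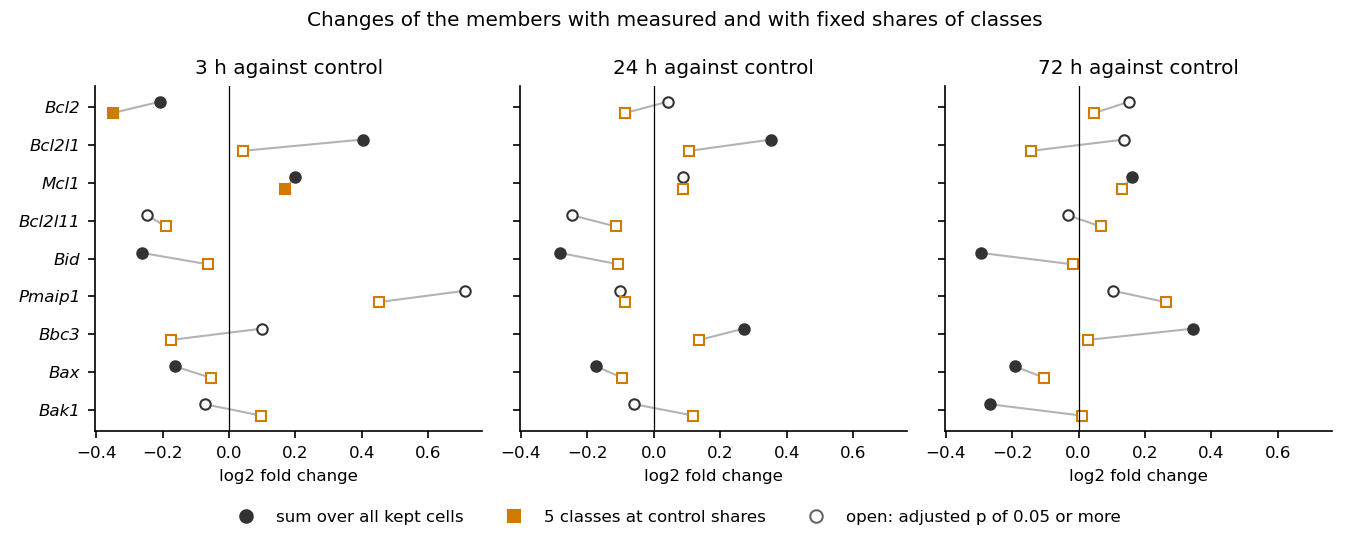
Log2 fold change against control of the 9 genes at 3, 24 and 72 h, as dark circles for the sums over all kept cells and as orange squares for the 5 classes averaged at their control shares, open where the adjusted p was 0.05 or more. At control shares the squares of Bid, Bbc3 and Bak1 lie nearer to 0 than the circles at 72 h, while Bcl2 at 3 h lies further below 0 (−0.35 against −0.21).

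Within the classes, 8 genes were tested in each class (7 in erythroid progenitor-like cells, without Bcl2l1) and Pmaip1 in none, since its counts were too low. Of 117 tests, 7 passed, 4 lower and 3 higher. In HSC-like cells none passed, where 20.1%, 5.5% and 4.97% of all genes passed at 3, 24 and 72 h. In LMPP-like cells 2 genes passed at 3 h, 1 at 24 h and none at 72 h, beside 16.2%, 5.29% and 5.37% of all genes. In myeloid progenitor-like cells 1 gene passed at each time point, beside 24%, 15.7% and 15.5%. In erythroid progenitor-like cells none passed, beside 13.8%, 9.28% and 5.02%, and in MK progenitor-like cells none at 3 h, 1 at 24 h and none at 72 h, beside 11%, 3.87% and 4.44%.

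The smallest adjusted p of these tests was that of Bcl2 in LMPP-like cells. The gene, whose promoter window above holds GC boxes and no ISRE core, was at 151, 145 and 167 CPM in control mice 1 to 3. The 3 h mice had 118, 88.8, 90.2 and 110.01 CPM, the 24 h mice 113, 119.8, 111 and 113 CPM and the 72 h mice 119, 141, 118 and 139.6 CPM. Every treated mouse lay below these 3 control mice, furthest at 3 h. Bcl2 fell by 0.61 on the log2 scale at 3 h (SE 0.100, adjusted p of 1.9e-05) and by 0.43 at 24 h (SE 0.082, adjusted p of 5.8e-04). At 72 h the log2 fold change was −0.26 (SE 0.086, adjusted p of 0.0754). Control mouse 4, with 9 LMPP-like cells below the minimum for the test, had 65.8 CPM from 11 UMIs, under all treated mice. With that mouse in the fit, the log2 fold changes were −0.57 at 3 h (adjusted p of 3.3e-04, where 16.3% of all genes passed) and −0.39 at 24 h (adjusted p of 7.6e-03, beside 5.22% of all genes). The smaller of the 2 LMPP-like clusters was led by Dntt, Flt3 and Satb1, but also by the interferon-stimulated Isg15 and Rtp4 and the HSC marker Hlf. This cluster made up 27.0% of the class in control and 13.5%, 11.6% and 11.1% at 3, 24 and 72 h. With both clusters at their control shares the log2 fold changes were −0.71 and −0.45 at 3 and 24 h (limma, adjusted p of 4.2e-05 and 0.0324), where 16.1% and 2.43% of all genes passed.

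Bcl2l11 in LMPP-like cells was at 6.70, 11.7 and 9.93 CPM in control and at 4.70, 4.51, 3.58 and 1.196 CPM at 3 h. All 4 treated mice lay below the 3 control mice, but on 13 UMIs. Bcl2l11 fell by 1.43 on the log2 scale (SE 0.409, adjusted p of 0.0131), the only call past 1 among the genes tested with the filter on low counts, and with finer clusters (Leiden resolution 1.2) it was −0.76 (adjusted p of 0.069). It did not pass without control mouse 2 (−1.25) or mouse 4 of 3 h (−1.18). At 24 h the mean was 6.15 CPM and at 72 h 10.0 CPM, with no call. Pmaip1, which was left out by the filter on low counts, had 6 UMIs in LMPP-like cells of control and 14 at 3 h. Without that filter it rose by 2.16 on the log2 scale at 3 h (adjusted p of 0.0262), where 10.9% of all genes passed.

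In myeloid progenitor-like cells, Bid was at 66.1, 64.7, 57.4 and 51.6 CPM in control and at 51.9, 51.2, 51.3 and 51.5 CPM at 3 h, where 3 treated mice lay below all control mice and the other between the lowest control mice. It fell by 0.28 on the log2 scale (SE 0.092, adjusted p of 0.0242, with DESeq2 0.076). Bbc3 was at 5.55, 5.30, 5.53 and 0 CPM in control and at 7.21, 7.57, 7.35 and 8.51 CPM at 24 h, with no overlap. It rose by 0.53 (SE 0.170, adjusted p of 0.0284), by 0.50 without control mouse 4, the mouse at 0 (adjusted p of 0.025), and did not pass with DESeq2 (adjusted p of 0.21). With the clusters of the class at their control shares, neither Bid at 3 h (−0.27, limma, adjusted p of 0.119) nor Bbc3 at 24 h (0.81, adjusted p of 0.431) passed, and with library size alone Bbc3 did not (0.46, adjusted p of 0.0535). Bcl2 was at 65.3, 59.7, 55.6 and 81.7 CPM in control and at 62.8, 88.3, 77.7 and 73.6 CPM at 72 h, with overlap. It rose by 0.29 (SE 0.088, adjusted p of 0.0205), but with the clusters at control shares the log2 fold change was −0.10 (limma, adjusted p of 0.736). None of these 3 calls held when each mouse was left out in turn. Bid did not pass without control mouse 1 or 2 or mouse 3 or 4 of 3 h (−0.28 to −0.25), Bbc3 without control mouse 1, 2 or 3 or mouse 2 or 4 of 24 h (0.47 to 0.56), and Bcl2 without control mouse 2 or 3 or mouse 2, 3 or 4 of 72 h (0.22 to 0.28).

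The clusters of the myeloid progenitor-like class had unlike levels of Bcl2. In control the cluster led by Ms4a6c, F13a1 and Ccr2, genes of the monocyte lineage, had a mean of 117 CPM of Bcl2, and the cluster led by S100a8 and S100a9, genes of neutrophils, 17.0 CPM. The first made up 35.0% of the class in control and 58.0%, 56.5% and 51.2% at 3, 24 and 72 h, and the second 26.1% in control and 7.25%, 8.70% and 9.87%. At 3 h the mean Bcl2 of the first cluster was 70.8 CPM, and with all clusters at control shares Bcl2 of the class fell by 0.83 (limma, adjusted p of 6.2e-05, beside 19% of all genes that passed), where the summed class gave −0.20 and did not pass (adjusted p of 0.197). The fit at control shares took only mice with at least 3 cells of each cluster. It gave the second cluster its control share, although that cluster held 19 cells at 3 h.

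In MK progenitor-like cells, Bak1 was at 32.2, 30.1 and 24.1 CPM in control. The 3 h mice had 46.6, 36.4, 39.4 and 37.1 CPM, the 24 h mice 44.7, 41.3, 43.4 and 39.2 CPM and the 72 h mice 39.8, 38.3, 34.3 and 39.6 CPM. Each treated mouse lay above the 3 control mice. Bak1 rose by 0.52 on the log2 scale at 24 h (SE 0.145, adjusted p of 0.0290, with DESeq2 0.079), and its log2 fold changes of 0.43 at 3 h (adjusted p of 0.177) and 0.40 at 72 h (adjusted p of 0.172) did not pass. The call at 24 h was lost without control mouse 2 or 3 or mouse 1, 2 or 3 of 24 h (0.42 to 0.54). Bid in the same cells was at 21.7, 16.5 and 15.5 CPM in control and at 39.9, 26.2, 27.9 and 23.2 CPM at 3 h, with no overlap and a log2 fold change of 0.64 that did not pass (SE 0.235, adjusted p of 0.0744).

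In HSC-like cells, where no gene of the family passed with the scaling by the trimmed mean of M-values (TMM), Bcl2 was at 75.3, 87.1, 112 and 61.0 CPM in control and at 68.7, 60.4, 82.5 and 88.4 CPM at 3 h. The groups overlapped, with a log2 fold change of −0.25 (95% interval −0.53 to 0.02). Mcl1 was at 162, 167, 150.4 and 221 CPM in control and at 211, 167, 169.6 and 200.3 CPM at 3 h, again with overlap and a log2 fold change of 0.18. Bbc3 was at 16.7, 23.0, 25.4 and 15.3 CPM in control and at 15.9, 14.8, 15.6 and 15.3 CPM at 3 h, with a log2 fold change of −0.47 (adjusted p of 0.117). With library size alone 3 genes passed as lower in HSC-like cells at 3 h, Bcl2 at −0.46 (adjusted p of 8.6e-03), Bbc3 at −0.68 (adjusted p of 0.0133) and Bax at −0.30 (adjusted p of 0.0159), where 32.3% of all genes passed. In the erythroid progenitor-like class the largest log2 fold change was −0.78 of Bcl2l11 at 24 h (adjusted p of 0.0700). It passed narrowly with Leiden resolution 1.2 (−0.81, adjusted p of 0.0499) and with label transfer without the correction between libraries (−0.82, adjusted p of 0.0486).

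Over all classes and time points, in the fit on UMI sums with TMM, Mcl1 ranged between −0.12 and 0.26 on the log2 scale. Bax ranged between −0.21 and 0.02 there, with no call of either gene. Bid ranged from −0.32 in LMPP-like cells at 24 h to 0.64 in MK progenitor-like cells at 3 h. With clusters at their control shares, Bax in myeloid progenitor-like cells fell by 0.24 at 3 h (limma, adjusted p of 0.0388), where 19% of all genes passed. With library size alone in place of TMM, the median of all genes at 3 h moved by −0.17 to −0.24 across the classes, and 11 pairs of a gene and a class passed at 3 h, all lower, from the 5 genes Bcl2, Bbc3, Bax, Bid and Bcl2l11. Of all genes, 32.3% passed there in HSC-like, 22.9% in LMPP-like, 35.2% in myeloid, 24.1% in erythroid and 17.2% in MK progenitor-like cells. The share of all called genes that were higher at 3 h changed from 63.2 to 25.3% in HSC-like, from 64.8 to 32.5% in LMPP-like, from 61.9 to 28.0% in myeloid, from 69.2 to 27.6% in erythroid and from 78.2 to 37.1% in MK progenitor-like cells, and from 50.7 to 25.6% in the sums of all cells. Across the classes it lay between 61.2 and 77.7% with TMM and between 38.0 and 59.8% with library size alone at 24 h, and between 61.6 and 69.6% and between 34.2 and 49.2% at 72 h.

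**Figure D4:**
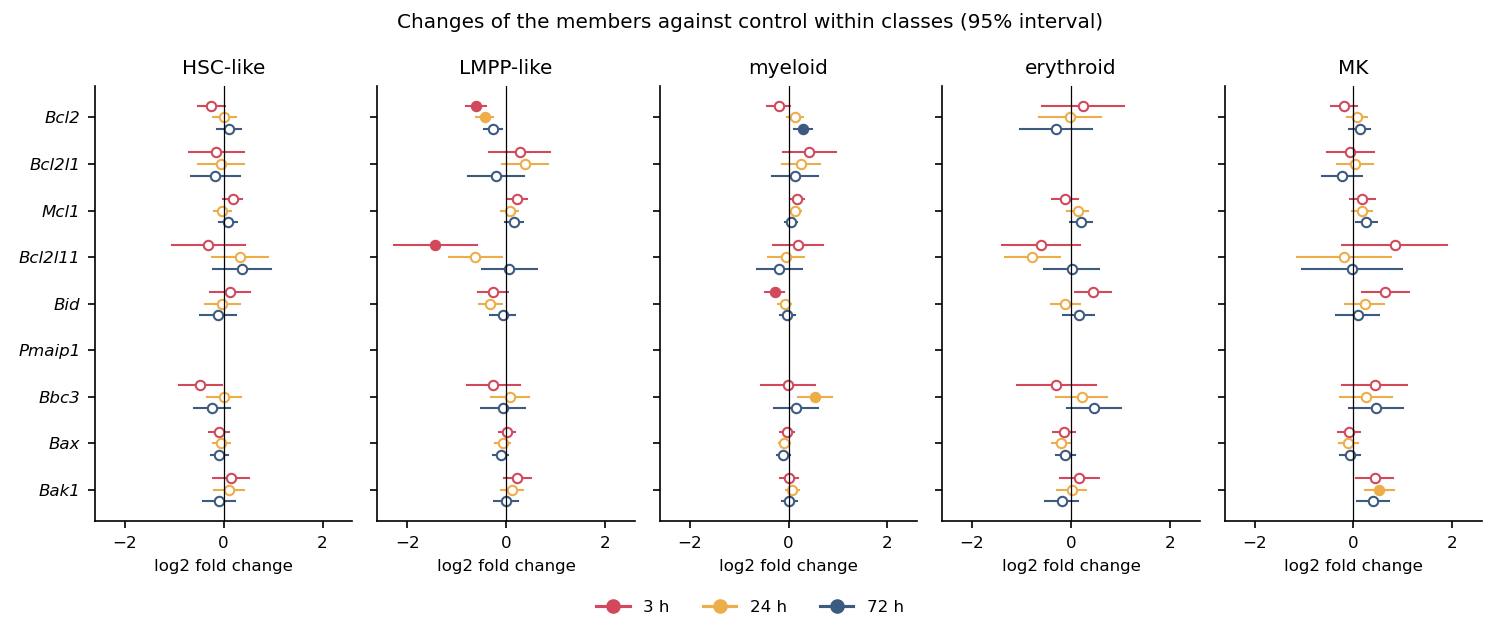
Log2 fold change against control of the genes of the family in the 5 classes at 3, 24 and 72 h, from the fit on UMI sums per mouse, with bars for the 95% interval and filled points where the adjusted p was under 0.05. Bcl2 and Bcl2l11 in LMPP-like cells at 3 h lie lowest among the called points (−0.61 and −1.43), and Bbc3 in myeloid progenitor-like cells (0.53) and Bak1 in MK progenitor-like cells (0.52) at 24 h lie highest.

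Whether the response of HSC-like cells differed from that of another class was tested within mice, as the difference in log2 CPM between the classes of the same mouse (limma). None of the 93 tests of a gene of the family passed, and 14 had an unadjusted p under 0.05 (7, 4 and 3 of them at 3, 24 and 72 h, of 31 tests each). Over all genes and the 4 comparisons, 13.9%, 6.68% and 6.10% of tests had such a p at these time points. The smallest adjusted p was 0.240 at 3 h, 0.320 at 24 h and 0.472 at 72 h. Few genes passed in all: against LMPP-like cells 0.557%, 0.0643% and 0.0107% of all genes at 3, 24 and 72 h, against myeloid progenitor-like cells 2.78%, 0.93% and 0.131%, against erythroid progenitor-like cells 1.53%, 0.135% and 0%, and against MK progenitor-like cells 0.172%, 0% and 0.0574%. For Bcl2 the log2 fold change in HSC-like cells exceeded that in LMPP-like cells by 0.33 at 3 h, 0.45 at 24 h and 0.36 at 72 h (adjusted p of 0.330, 0.664 and 1.00). In a two-sided exact permutation test of the mice, the difference at 24 h reached p = 0.0286, the smallest p that these numbers of mice allow. The same p was reached at 24 h by Mcl1 against myeloid progenitor-like cells (−0.20, limma adjusted p of 0.526). Bcl2l11 against erythroid progenitor-like cells reached it too (1.06, limma adjusted p of 0.320). These were 3 of 93 exact tests, without adjustment. The exact test was not run over all genes, so no share stands beside this count and it is not read as a difference.

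The balance of the family was described, without a test, as the mean log2 CPM of the 3 anti-apoptotic genes minus that of the 6 pro-apoptotic genes, and only its differences between mice and classes are read (plot of the balance by class). In control it was highest in MK progenitor-like cells at 2.03 ± 0.063 (SD, n = 3), then 1.81 ± 0.242 in HSC-like (n = 4), 1.45 ± 0.194 in LMPP-like (n = 3), 0.96 ± 0.458 in myeloid progenitor-like (n = 4) and −0.23 ± 0.130 in erythroid progenitor-like cells (n = 3). The prior count of 2 weighs more in a class with fewer UMIs, so these levels depend on it. With a prior count of 0.5 the means were 2.37, 2.01, 1.62, 1.08 and −0.07, in the same order of classes. The order at the upper end still depended on the form of the balance. As the share of the 3 anti-apoptotic genes in the summed CPM of all 9 genes it was 59.2% in HSC-like, 52.1% in LMPP-like, 50.5% in MK, 37.1% in myeloid and 26.2% in erythroid progenitor-like cells, with overlap between LMPP-like and MK progenitor-like cells. Erythroid progenitor-like cells, at the lower end, were the class of lowest Bcl2 and Bcl2l1, and MK progenitor-like cells that of highest Bcl2l1 and lowest Bid. Against control the balance of HSC-like cells differed by 0.00, −0.04 and 0.10 at 3, 24 and 72 h, within the SD of the control mice.

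In MK progenitor-like cells the balance was 1.98, 2.02 and 2.10 in the control mice and 1.12, 1.55, 1.92 and 1.78 at 3 h, so that all treated mice lay below. Its mean differed by −0.44. The mean log2 CPM of the anti-apoptotic genes differed by −0.06, and that of the pro-apoptotic genes, which is subtracted, by 0.38. No gene of the family passed in these cells at 3 h in the main fit. The separation depended on the form of the balance. With a prior count of 0.5 in place of 2, the 3 h mice (1.45 to 2.31) overlapped with control (2.23 to 2.48). As summed CPM share they did too (41.8 to 51.9% against 49.0 to 52.7%). With library size alone or without genes under 5 CPM they did not. In LMPP-like cells at 72 h the balance was 1.28, 1.23, 1.15 and 1.31 against 1.43, 1.26 and 1.65 in control, with overlap. In the sums of all cells it was 1.13, 1.21, 1.32 and 1.41 in control, 1.53, 1.55, 1.52 and 1.33 at 24 h and 1.39, 1.39, 1.38 and 1.53 at 72 h, a mean difference of 0.22 and 0.16 with overlap at both time points. The shares of the classes in these sums also differed from control. Within the classes the mean difference of the balance at 24 h was −0.04 in HSC-like, 0.08 in LMPP-like, −0.09 in myeloid, 0.30 in erythroid and −0.05 in MK progenitor-like cells. At 72 h it was 0.10, −0.21, −0.15, −0.06 and −0.03 in the same order. In erythroid progenitor-like cells at 3 h the 4 mice spread from −2.34 to 0.79, where the lowest mouse had 15 cells and no UMI of Bcl2.

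**Figure D5:**
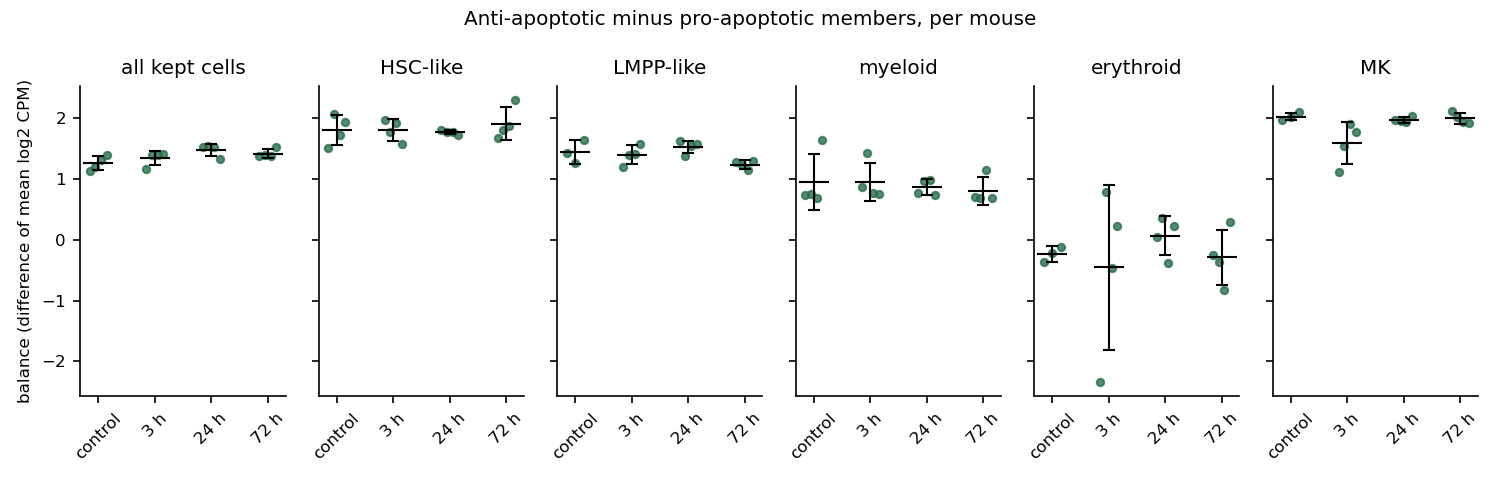
Balance per mouse, the mean log2 CPM of Bcl2, Bcl2l1 and Mcl1 minus that of Bax, Bak1, Bid, Bcl2l11, Pmaip1 and Bbc3, for the sums of all cells and the 5 classes at control, 3, 24 and 72 h, with the mean ± SD of 4 mice (3 in control for LMPP-like, erythroid and MK progenitor-like cells). On this scale the classes in control run from MK progenitor-like (2.03) to erythroid progenitor-like cells (−0.23), while as a summed CPM share HSC-like cells are highest (59.2%). In MK progenitor-like cells the 4 mice of 3 h lie below the 3 control mice on this scale, but overlap with them as a summed CPM share.

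Across the 77 sums of a class in a mouse, the genes whose log2 CPM was most like that of a member, among 5348 genes of at least 20 CPM, were Bmyc and Fxyd5 for Bcl2 (r of 0.929 and 0.926), Malat1 and Junb for Mcl1 (0.870 and 0.854), Gpx1 and Taldo1 for Bid (0.866 and 0.831), Phb2 and Coq7 for Bax (both 0.888) and Ssr2 and Cox5a for Bak1 (0.8286 and 0.825). Within the family, Mcl1 and Bax had r = −0.749 over all sums and −0.257 after the mean of each class was removed, and Bid and Bak1 0.737 and 0.265. These sums share mice, libraries and depth, so that the values are a description of the order of classes more than of mice.

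Around the family, genes of other steps of apoptosis moved in both directions in the sums of all cells. Of the 12 apoptosome and caspase genes, 4 were higher and 4 lower at 3 h, 2 and 3 at 24 h, and 2 and 2 at 72 h, where 38.8%, 28.3% and 37.4% of all genes passed. Casp8, the initiator caspase of death receptors whose product cleaves BID, rose from 70.6 to 121 CPM at 3 h (log2 fold change 0.79, SE 0.048, adjusted p of 4.6e-12), and Aifm1, a mitochondrial flavoprotein, rose by 0.46 (adjusted p of 5.0e-07). Htra2, a mitochondrial protease that binds inhibitors of apoptosis, fell by 0.43 (adjusted p of 3.2e-05). Casp8 rose at 3 h in each of the 5 classes, by 0.91 in HSC-like, 0.67 in LMPP-like, 0.26 in myeloid, 1.504 in erythroid and 0.84 in MK progenitor-like cells.

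Of the 13 other listed members of the BCL2 family 8 were tested, with 1 higher and 1 lower at 3 h, 1 higher (Bok) at 24 h and 1 lower (Bcl2l12) at 72 h, beside 38.8%, 28.3% and 37.4% of all genes. Bcl2a1b, an anti-apoptotic gene with near-identical copies between which reads can be split, rose by 1.46 at 3 h from 0.462 to 1.62 CPM (SE 0.367, adjusted p of 2.9e-03), and Bad, a BH3-only gene, fell by 0.21 (adjusted p of 0.0161). Of the 6 genes listed as inhibitors of apoptosis, 3 were higher and 1 lower at 3 h, and 1 was lower at 24 and at 72 h, beside the same shares of all genes. Birc5, survivin, a gene of dividing cells, fell from 179 to 110.0 CPM at 3 h (log2 fold change −0.68, adjusted p of 3.4e-10), while Birc6 rose by 0.22 and Naip5, a gene with close copies, by 0.73.

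Of the 9 p53 and stress factors, 2 were higher and 1 lower at 3 h, 1 was higher at 24 h and 3 were higher at 72 h, beside the 38.8%, 28.3% and 37.4% of all genes that passed. The p53 target Cdkn1a, a cell cycle inhibitor, rose by 0.81 at 3 h (adjusted p of 3.7e-05), Ddit3, a factor of the unfolded protein response, by 0.30 (adjusted p of 0.0204), and Mdm2, the ligase that degrades p53, fell by 0.25 (adjusted p of 0.0205). Of the 6 genes of MCL1 turnover, 3 were higher at 3 h, namely the ligase genes Fbxw7 (0.26) and Huwe1 (0.23) and the conjugating enzyme gene Ube2d1 (0.22), and 2 were higher at 72 h. Of the 6 mitochondrial partners, 1 was lower at 3 h, Vdac2 of the outer membrane (−0.15, adjusted p of 1.7e-03), and 3 were lower at 72 h. These counts stand beside the same shares of all genes.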

How the data were processed

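With Cell Ranger 3.1.0 and the mm10 genome, the authors made and deposited raw UMI counts per gene and barcode, without normalization, for 4 libraries. The annotation version is not given in the sources used here. They also deposited the hashtag call of each barcode by Seurat, with total hashtag counts and a margin score between its highest hashtags. No per-sample value column was left unused (0).

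Barcodes with a single hashtag, at least 700 genes and at most 5% mitochondrial counts were kept. Between 67 and 169 multiplets and 166 and 422 negatives per library were removed, while doublets of 1 mouse remained. Control cells were clustered over 500 variable genes (Leiden resolution 0.8, 15 neighbors) and named by markers, and labels were transferred over 2000 genes per library after a mutual nearest neighbor correction, with Scanpy 1.11.5 and Python 3.11.15. The 9 genes took no part in either step.

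UMIs were summed per mouse (1102706 to 26446327) and class (at least 10 cells) and tested with edgeR 4.0.16 (filterByExpr, TMM, quasi-likelihood F test over all mice, time point as term, R 4.3.3). Adjusted p-values are Benjamini-Hochberg over all genes tested, with a threshold of 0.05. CPM use TMM factors. Differences between classes were tested with limma 3.58.1 on log2 CPM (prior count 2), and averages at fixed shares with limma on log2(CPM + 1). Fixed shares of classes or clusters count cells, while in summed counts each part weighs by its UMIs. DESeq2 1.42.0 served as an alternative. Alternatives in tests, scaling, filters, doublets, clusters, label transfer and mice, and those added after the data had been seen, are given in the closing section. On counts simulated with 200 genes changed at 3 h, the fit recovered 44% of genes changed 1.25-fold and 94% of those changed 2-fold in the sums of all cells (11988 genes), and 6% and 76% in LMPP-like cells (9610 genes). Of the calls, 4.24% and 8.47% were unchanged genes. In the data far more genes passed at 3 h (38.8% and 16.2%), so these rates need not hold there.

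All 9 members were named. Of each further list, up to 3 genes with the largest change at 3 h among those passing the test were named, and for each member of at least 20 CPM the 2 genes of most similar pattern. Bok and Bcl2l12 were named after their values had been seen. The members, lists and markers were chosen with earlier results of these data known. By GENCODE vM21, genes on the same strand overlap Bcl2, Bid and Bax, and how their reads were counted is not given in the sources used here. Promoter windows are from RefSeq on GRCm38.p6, the assembly also called mm10.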

Additional observations from a re-analysis of the deposited data

Results flagged for a closer look

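In 9 of 57 groups of 4 mice, 1 mouse stood apart from the other 3 by Dixon's gap over the range (past the 95% critical value for 4 samples), which chance gives in about 1 in 20 groups. Control mouse 4, with 58 cells, was highest in the sums of all cells for Bcl2l1 (11.3 CPM, nearest 8.23 CPM) and Mcl1 (138 CPM, nearest 112 CPM) and had the highest balance among control mice in myeloid progenitor-like cells (1.64, nearest 0.76). Mouse 2 of 72 h was lowest for Bax (129.9 CPM, nearest 136 CPM). In myeloid progenitor-like cells the balance was highest in mouse 2 at 3 h (1.43, nearest 0.86) and mouse 3 at 72 h (1.16, nearest 0.70). In the sums of all cells it was lowest in mouse 1 at 3 h (1.17, nearest 1.40) and mouse 4 at 24 h (1.33, nearest 1.52) and highest in mouse 4 at 72 h (1.53, nearest 1.39).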

How the results depend on the processing

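In the sums of all cells, the calls of 5, 4 and 5 genes at 3, 24 and 72 h became 3 at 3 h with the likelihood ratio test, 0 at each time point with a log2 fold change over 1 in addition, and 2, 0 and 0 with the classes at control shares, where Bak1 at 72 h turned to 0.010. Leaving out 1 mouse gave 3 to 5, 1 to 5 and 3 to 5 calls (3 at 3 h without control mouse 1 or mouse 3 of 3 h, 2 at 24 h without mouse 2 of 24 h, 1 at 24 h and 3 at 72 h without control mouse 1). In the classes, the calls of 3, 3 and 1 genes became 5 at 3 h and 0 at 72 h with clusters at control shares (Bcl2 in myeloid progenitor-like cells turned to −0.10), 11 gene and class pairs at 3 h and 1 at 24 h with library size alone, 1, 0 and 0 with the fold limit, 1 at 24 h and 0 at 72 h with DESeq2, 0 at 72 h with Leiden resolution 1.2 or without the correction between libraries, and 2 at 72 h without a filter. Leaving out 1 mouse gave 1 to 4, 1 to 3 and 0 to 1 (1 at 3 h without control mouse 2, 1 at 24 h without control mouse 3 or mouse 2 of 24 h, and 0 at 72 h without mouse 2, 3 or 4 of 72 h or control mouse 2 or 3). Bid at all times, Mcl1 at 3 h and Bax and Bbc3 at 72 h in the sums, and Bcl2 in LMPP-like cells at 3 h (−0.69 to −0.54) and 24 h (−0.48 to −0.37), stayed past the threshold without any 1 mouse. Differences between HSC-like and other classes had 0 calls except 3 of 31 tests at 24 h with the exact test, unadjusted and without a share over all genes. The balance, as a summed CPM share in percentage points, changed by 3.13 at 3 h and 5.44 at 72 h in the sums, by −3.04, −1.71 and −0.23 at 3, 24 and 72 h in LMPP-like cells, by 2.05 at 72 h in myeloid and 3.06 at 72 h in erythroid progenitor-like cells, and by −2.28, 1.13 and 2.16 in MK progenitor-like cells. Without genes under 5 CPM it changed on the log2 scale at 3 h by 0.21 in the sums and 0.26 in LMPP-like cells. Settings not named here kept these counts within 1.5 times. The causes were not tested, except that fewer mice or genes entered some fits.

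Hashtag numbers mark different mice, and same-numbered mice did not deviate together (r of −0.058 to 0.095 over 24 pairs). With the number as a replicate block the calls in the sums remained 5, 4 and 5 and those in the classes became 4, 2 and 1, with Bid in MK progenitor-like cells at 3 h added (0.73, adjusted p of 0.0416) and Bbc3 in myeloid progenitor-like cells at 24 h lost (0.51, adjusted p of 0.0664). Depth limits Pmaip1 in each class and Bcl2l1 in erythroid progenitor-like cells.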
